A study of Mus musculus with 10 samples.

Results

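Kruppel-like factors (KLFs) are a family of transcription factors, and 10 of their genes, Klf2, Klf3, Klf4, Klf5, Klf6, Klf7, Klf9, Klf10, Klf13 and Klf15, were followed here in pancreatic islets of Men1 heterozygous and wildtype mice. Men1 encodes menin, a nuclear scaffold protein that suppresses endocrine tumours. The arrays hold 34 probe sets annotated to these 10 genes, of 45037 probe sets without controls, and 18193 genes are named on them in all. The genes were chosen by name with an earlier analysis of the same arrays known, and the values in view were their genotype differences, those of Klf2 and Klf4 first, so the genotype differences of the members are given as a description, and nothing is inferred from a test of them. The samples are islets of 5 female mice heterozygous for Men1 and of 5 female wildtype littermates, all aged 5 weeks and of the strain labelled C57 on a 129 background. About 100 islets per mouse were pooled into 1 RNA sample and run on 1 array, so the replicates are separate mice. The sources used here do not say how the Men1 allele was made. All values are on the log2 scale, where a step of 1 is a doubling, differences are heterozygous minus wildtype, levels are means ± SD (n = 5 mice per genotype), and the standard error of a difference is written SE.

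KLFs bind GC-rich and CACCC-type DNA through a run of zinc fingers at the C-terminal end of the protein, while the rest of the protein recruits activators or repressors and differs between members. In blood vessel walls KLF2 and KLF4 are induced by laminar flow through the kinases MEKK3, MEK5 and ERK5 and the factor MEF2, a route that the cerebral cavernous malformation (CCM) proteins hold in check, and they keep endothelium quiet. Several members, Klf2, Klf4, Klf6 and Klf10 among them, also respond within minutes to serum, stress or tissue handling, and Klf9 and Klf15 are induced by glucocorticoids.

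The stretches just before the transcription start are shown for Klf2 and Klf4, the members with the widest genotype differences, and for Klf9, whose 3 bright probe sets had differences near 0. Of the 10 members, 8 had an entry in the RefSeq promoter table (build GRCm38.p6), which holds 32851 promoters. Each line gives the 250 bases before the start, 5′ to 3′ on the gene's strand. The Klf2 window is chr8:72318812-72319061 on the plus strand, that of Klf4 chr4:55532476-55532725 on the minus strand, and that of Klf9 chr19:23140976-23141225 on the plus strand. Capitals mark matches, on either strand, to the MEF2 consensus and to CACCC, which in reverse reads as the GGGTG seen in the Klf2 line.
Klf2: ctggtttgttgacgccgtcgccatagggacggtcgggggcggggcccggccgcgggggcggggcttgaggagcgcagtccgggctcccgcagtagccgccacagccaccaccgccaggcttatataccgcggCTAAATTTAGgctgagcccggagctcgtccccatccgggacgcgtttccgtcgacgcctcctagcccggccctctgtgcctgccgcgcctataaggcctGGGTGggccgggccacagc
Klf4: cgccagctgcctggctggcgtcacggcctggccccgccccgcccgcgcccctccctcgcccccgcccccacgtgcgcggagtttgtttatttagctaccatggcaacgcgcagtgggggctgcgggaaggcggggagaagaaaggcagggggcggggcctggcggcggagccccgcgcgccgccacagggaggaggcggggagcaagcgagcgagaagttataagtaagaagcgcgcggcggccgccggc
Klf9: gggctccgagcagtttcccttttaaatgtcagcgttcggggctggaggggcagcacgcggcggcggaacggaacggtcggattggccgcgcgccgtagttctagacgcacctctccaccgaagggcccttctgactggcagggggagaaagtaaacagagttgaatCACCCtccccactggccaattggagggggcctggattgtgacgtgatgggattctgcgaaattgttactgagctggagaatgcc

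A match to the MEF2 consensus, the letters CTAAATTTAG, lay at -118 to -109 from the Klf2 start, and of the 8 member promoters Klf2 alone had one. Such a match was found in 2.92% of all promoters. CACCC stood in 6 of the 8 member promoters, with 1 copy each in Klf2 and Klf9 and none in the Klf4 window, against 52% of all promoters. The GC box GGGCGG stood in 7 of the 8, Klf9 being the one without, against 32.7% of all promoters. In the 250 bases, G and C made up 71.2% of the Klf2, 74% of the Klf4 and 59.6% of the Klf9 sequence. CCAAT was found in 4 of the 8 (Klf6, Klf9, Klf13 and Klf15; 33.8% of all promoters) and TGACGTCA in 0 (1.55% of all). In the 8 windows, matches to different motifs shared a base in Klf3 and in Klf13, each time CACCC and GGGCGG by 1 base. A match describes the letters in the window only.

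Men1 itself had 1 of its 3 probe sets above the filter described next, at 7.21, 7.18, 6.83, 6.96 and 6.25 in wildtype replicates 1 to 5 and 6.82, 6.09, 6.56, 6.44 and 6.16 in heterozygous replicates 1 to 5, with overlap between genotypes. The hormone genes of beta and alpha cells were high, with Ins2 at 16.28 (wildtype) and 16.23 (heterozygous) and Gcg at 16.40 and 16.31. Acinar enzyme genes were high as well, with Cela3b at 17.08 and 17.05 and Cela2a at 16.82 and 16.78. The filter kept probe sets that read over 4 on 5 or more arrays, 18567 probe sets for 10538 genes. Array medians ran from 3.28 to 3.40. RNA of other cell types varied between mice. The mean of 6 lymphocyte genes above the filter was 6.86 and 6.39 in heterozygous replicates 2 and 5, against 4.56 to 4.67 in the other heterozygous mice and 4.60 to 5.48 in wildtype mice, while 6 further markers on the arrays, Cd79b, Cd3d, Cd3e, Cd3g, Cd2 and Cxcr5, did not pass the filter. The mean of 9 acinar genes was lowest in heterozygous replicate 5, at 14.75, against 15.03 to 15.38 in the other mice. The 3′ minus 5′ difference of the Actb and Gapdh control probe sets, a measure of transcript shortening, was 3.21 to 3.37 in wildtype and 3.23 to 3.60 in heterozygous mice, with the highest values in heterozygous replicates 3 and 4.

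Of the 34 member probe sets 27 passed the filter, at least 1 for each of the 10 genes. With limma, 0 of the 27 passed an adjusted p of 0.05, as did 0 of all 18567 probe sets (0%), while 3 of the 27 had an unadjusted p under 0.05 beside 4.09% of all. The 3 are the single Klf2 probe set, 1 of the 2 Klf4 probe sets and 1 dim Klf3 probe set. That Klf3 probe set read over 4 on 5 arrays, those of wildtype replicates 1, 2, 4 and 5 among them. It thus passed the filter mainly through wildtype mice. Of the 27, 17 had a lower mean in heterozygous islets and 10 a higher one, where 43.6% of all probe sets were lower. Taking for each gene its probe set of highest mean, 9 of the 10 members were lower and Klf10 was higher, with a median difference of -0.12 against 0.01 over all genes. With all kept probe sets of a gene averaged instead, 6 members were lower and 4, Klf6, Klf7, Klf10 and Klf13, were higher. The choice of members used this comparison, so nothing is read from any of these counts, those at an unadjusted p included.

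**Figure D1:**
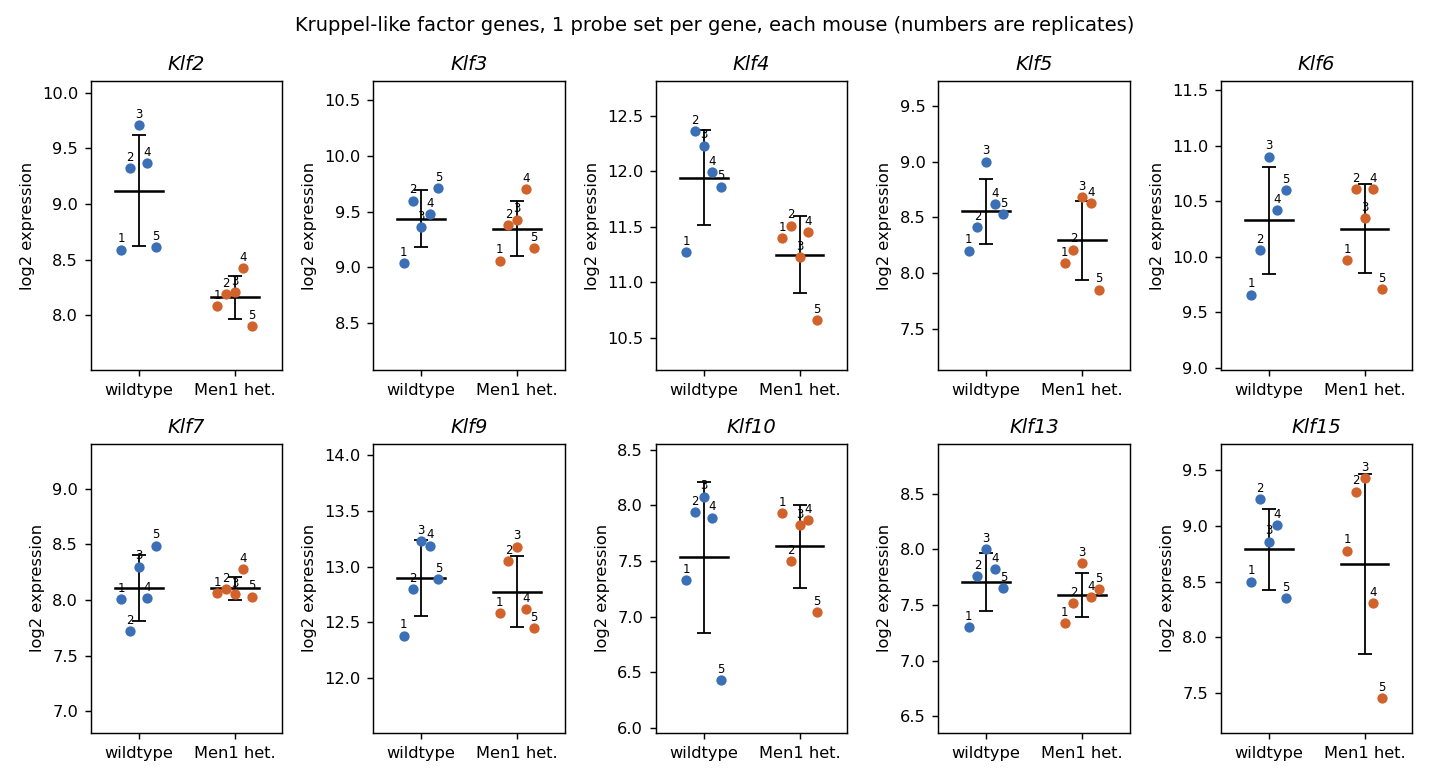
Log2 expression of the 10 genes in each of 5 wildtype (blue) and 5 Men1 heterozygous mice (orange), 1 probe set per gene, with replicate numbers beside the points, the mean as a line and the SD as a bar. Every panel spans the same log2 range. The genotypes separate for Klf2, where the heterozygous mice lie between 7.90 and 8.42 and the wildtype mice between 8.59 and 9.71, and overlap in the other panels.

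Klf2 had the widest difference of the family. Its 1 probe set read 8.59, 9.32, 9.71, 9.37 and 8.61 in wildtype replicates 1 to 5 and 8.08, 8.19, 8.21, 8.42 and 7.90 in heterozygous replicates 1 to 5. All heterozygous mice lay below all wildtype mice, a separation in this direction that 0.172% of all probe sets showed. Wildtype replicates 1 and 5 lay apart from the other 3 wildtype mice and close to the heterozygous ones, which spanned a narrower range. Klf2 averaged 9.12 ± 0.50 in wildtype and 8.16 ± 0.19 in heterozygous islets, a difference of -0.96 (SE 0.22, 95% interval -1.44 to -0.48), or 51.4% of the wildtype level (interval 36.9% to 71.5%). Over the fits that left out 1 mouse the difference ran from -1.09 (without wildtype replicate 1 or 5) to -0.81 (without wildtype replicate 3). In tissue as a whole, fewer cells of a type and less RNA per cell cannot be told apart, for this and every later value.

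Klf4, which acts in epithelia and in endothelium and is known as a reprogramming factor, followed with 2 probe sets. The one with the higher mean read 11.27, 12.36, 12.23, 11.99 and 11.86 in wildtype replicates 1 to 5 and 11.40, 11.51, 11.23, 11.45 and 10.66 in heterozygous replicates 1 to 5. Wildtype replicate 1 lay among the heterozygous mice, the other wildtype mice lay above all of them, and heterozygous replicate 5 was the lowest of all. The means were 11.94 ± 0.43 and 11.25 ± 0.34, a difference of -0.69 (SE 0.22, 95% interval -1.18 to -0.20), or 61.9% of the wildtype level. A difference of this size or lower stood in 0.56% of all probe sets. The other probe set gave 8.47 ± 0.65 and 8.05 ± 0.36, a difference of -0.42 (SE 0.29) whose 95% interval, -1.07 to 0.23, spans 0. Over the 10 mice, with the genotype means taken out, the 2 Klf4 probe sets moved together, at r = 0.81 and rho = 0.92 (permutation p = 0.00353 and 0.00363, adjusted 0.0120 and 0.0206 over 17 pairs of probe sets). Without heterozygous replicate 5 and wildtype replicate 2, the mice farthest from the median, r was 0.76.

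**Figure D2:**
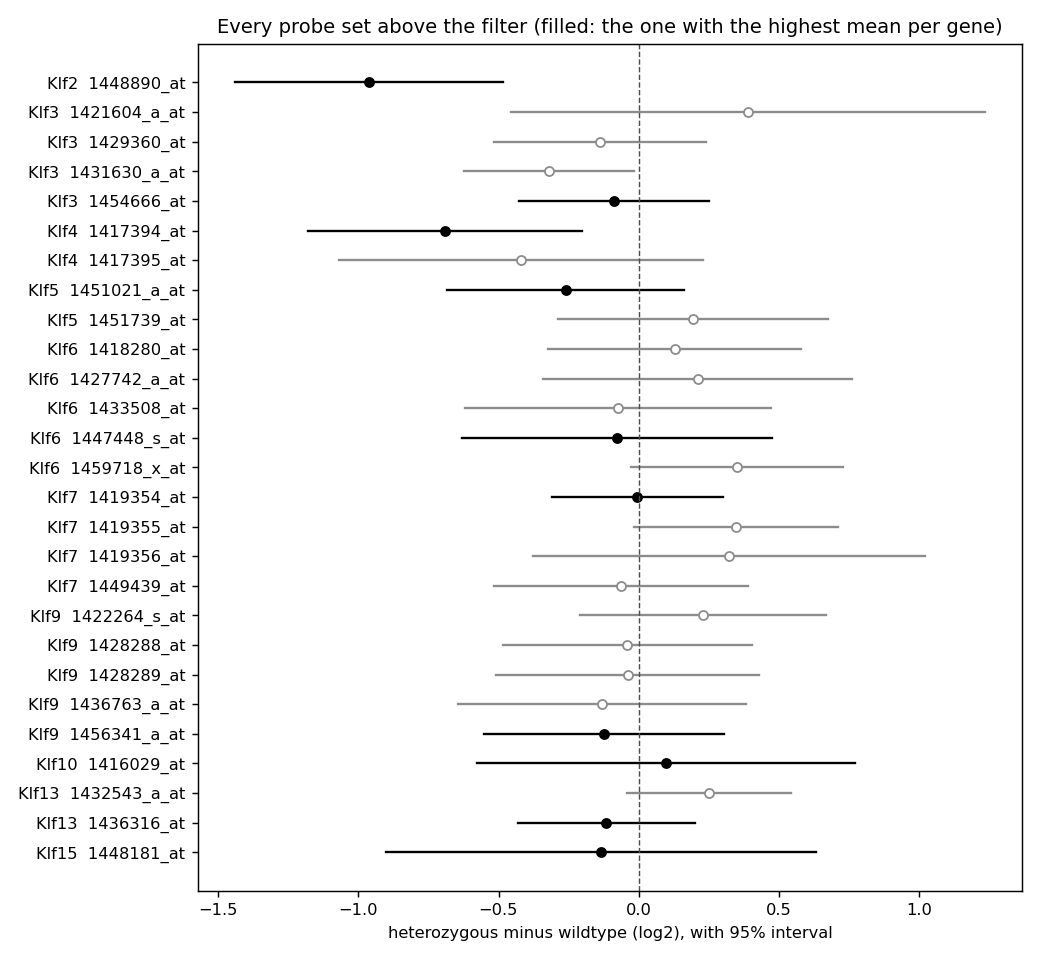
Difference between genotypes (heterozygous minus wildtype, log2, x axis) with its 95% interval for each of the 27 member probe sets above the filter, filled for the probe set with the highest mean of its gene. The intervals of Klf2 (-1.44 to -0.48), the first Klf4 probe set (-1.18 to -0.20) and 1 dim Klf3 probe set lie below 0, and those of the other 24 span 0. That Klf3 probe set passed the filter mainly through wildtype mice.

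Klf5, Klf6 and Klf10 act in growing or stimulated cells. Klf5, a factor of dividing epithelium and smooth muscle, ranged from 8.20 to 9.0 in wildtype and from 7.85 to 8.68 in heterozygous mice, with 2 heterozygous mice below all wildtype mice. Its difference was -0.26 (SE 0.19). A second Klf5 probe set stood at 0.19 (SE 0.22), and the pair did not move together over the mice (r = -0.06, rho = -0.07, permutation p = 0.880 and 0.875, r = -0.08 without wildtype replicate 3 and heterozygous replicate 5).

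Klf6, an early response gene, was measured by 5 probe sets, which spread from -0.08 to 0.35. The one with the highest mean ranged from 9.66 to 10.90 in wildtype and from 9.71 to 10.61 in heterozygous mice and differed by -0.08 (SE 0.25). A second, at 9.28 ± 0.44 and 9.21 ± 0.43, gave -0.07 (SE 0.25) and tracked the first over the mice (r = 0.97, rho = 0.98, permutation p = 0.00016 and 0.00029, adjusted 0.00272 and 0.00493, r = 0.94 without heterozygous replicate 5 and wildtype replicate 1). The other 3 Klf6 probe sets, with wildtype means from 4.40 to 5.91, had higher means in heterozygous islets, by 0.13 (SE 0.20), 0.21 (SE 0.25) and 0.35 (SE 0.17).

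Klf10, named for its induction by TGF-beta, was the member whose main probe set was higher. It read 7.33, 7.94, 8.08, 7.89 and 6.43 in wildtype replicates 1 to 5 and 7.93, 7.5, 7.82, 7.87 and 7.04 in heterozygous replicates 1 to 5. The lowest value of each genotype came from replicate 5. Klf10 differed by 0.10 (SE 0.31), and by -0.18 (SE 0.21) without wildtype replicate 5. Its SD within genotypes, 0.55, was larger than that of 94.4% of all genes.

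Klf9, Klf13 and Klf15 link to hormone and metabolic control. Klf9, a repressor induced by glucocorticoid and thyroid hormone, had 5 probe sets above the filter. The one with the highest mean ranged from 12.38 to 13.23 in wildtype and from 12.45 to 13.18 in heterozygous mice and differed by -0.12 (SE 0.19). The next 2, at wildtype means of 11.44 and 11.19, both gave -0.04 (SE 0.20 and 0.21) and moved with it at r = 0.89 and 0.94 (rho = 0.85 and 0.94, permutation p = 0.00173 and 0.00045 for r, adjusted 0.00863 and 0.00383, r = 0.77 and 0.91 without heterozygous replicate 5 and wildtype replicate 1). The remaining 2 dim probe sets gave -0.13 (SE 0.23) and 0.23 (SE 0.20). The intervals of the 3 with high means reached from -0.55 to 0.43 at the widest, so differences beyond about that size in either direction lay outside them.

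Klf13, a close relative of Klf9, had 2 probe sets above the filter that pointed in opposite directions. One ranged from 7.30 to 8.0 in wildtype and from 7.34 to 7.88 in heterozygous mice, a difference of -0.12 (SE 0.14), and the other from 6.76 to 7.28 and from 7.18 to 7.65, a difference of 0.25 (SE 0.13). Over the mice within a genotype they tracked each other at r = 0.78 (rho = 0.54, permutation p = 0.0181 and 0.134, adjusted 0.0512 and 0.175, r = 0.70 without wildtype replicates 1 and 3).

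Klf15, a regulator of amino acid use and glucose production, read 8.50, 9.24, 8.86, 9.01 and 8.35 in wildtype replicates 1 to 5 and 8.78, 9.31, 9.43, 8.31 and 7.45 in heterozygous replicates 1 to 5. The 2 highest and the 2 lowest values of all were in heterozygous mice. The means were 8.79 ± 0.37 and 8.66 ± 0.81, a difference of -0.13 (SE 0.35), and of 0.17 (SE 0.26) without heterozygous replicate 5. Its SD within genotypes, 0.63, was larger than that of 96.5% of all genes.

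Klf3 and Klf7 had differences near 0 in their main probe sets. Klf3, a repressor that works with the corepressor CtBP, ranged from 9.04 to 9.71 in wildtype and from 9.06 to 9.70 in heterozygous mice, a difference of -0.09 (SE 0.15), and its second probe set gave -0.14 (SE 0.17). Of the 2 dim Klf3 probe sets, 1 stood at 4.12 ± 0.15 against 3.80 ± 0.27 (-0.32, SE 0.14), with its heterozygous mean below the filter value, and the other at 0.39 (SE 0.38). Klf7, known from developing neurons, ranged from 7.72 to 8.49 in wildtype and from 8.03 to 8.28 in heterozygous mice, a difference of -0.01 (SE 0.14, 95% interval -0.31 to 0.30). Its other 3 probe sets gave -0.06 (SE 0.21), 0.32 (SE 0.32) and 0.35 (SE 0.16), and their r with the main one ran from -0.27 to 0.50 (rho from -0.21 to 0.28, permutation p from 0.266 to 0.822 for r, and r from 0.21 to 0.59 without wildtype replicates 2 and 5). The 7 member probe sets that did not pass the filter, 3 of Klf3, 2 of Klf9 and 1 each of Klf5 and Klf13, had means from 1.78 to 3.80 in both genotypes and were not compared.

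Of the Klf genes that are no members, Klf11 and Klf12 passed the filter. Klf11, a relative of Klf10, averaged 6.84 ± 0.21 in wildtype and 7.0 ± 0.77 in heterozygous mice (0.16, SE 0.31), with heterozygous replicate 2 highest at 7.94 and replicate 5 lowest at 5.81. Klf12, a repressor of the Klf3 type, stood at 7.33 ± 0.24 and 7.66 ± 0.29 (0.32, SE 0.16), and at 0.22 (SE 0.17) by its other probe set. Klf1, the erythroid member, as well as Klf14, Klf16 and Klf17 did not pass. Among the related Sp factors, which bind the same GC boxes, Sp1 differed by 0.12 (SE 0.10), Sp3 by 0.25 (SE 0.15), Sp4 by 0.39 (SE 0.23) and Sp6 by -0.03 (SE 0.10). The Sp4 value rested on heterozygous replicate 5 at 6.46, where the other 9 mice lay from 5.02 to 5.38. With limma 0 of these probe sets passed an adjusted p of 0.05 (0 of 8 at an unadjusted p under 0.05).

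Members were next set beside genes that mark vessels and matrix, since Klf2 and Klf4 are known from vessel walls. Of 17 endothelial genes above the filter 16 lay lower in heterozygous islets and 1 higher, the median being -0.39, where 45.6% of all genes were lower and the median was 0.01. Esam, a junction protein gene, stood at -0.53 (SE 0.17), the factor gene Sox18 at -0.61 (SE 0.20), Egfl7, a secreted vessel protein, at -0.61 (SE 0.24) and Sox17 at -0.64 (SE 0.27), while the 1 gene counted as higher, the VEGF receptor gene Kdr, lay at 9.21 in both genotypes. Flt1, another VEGF receptor gene, was counted as lower but stood at 7.88 in both genotypes. Pecam1, a defining marker of endothelium, did not pass the filter. The endothelial mean ranged from 7.29 to 7.93 in wildtype and from 6.81 to 7.61 in heterozygous mice. Of 21 matrix genes all 21 were lower, with a median of -0.60, among them Lama4, a laminin chain (-0.60, SE 0.14), the collagen genes Col3a1 (-1.08, SE 0.31) and Col15a1 (-0.42, SE 0.14), and the proteoglycan gene Dcn (-0.64, SE 0.19). The matrix mean ranged from 9.21 to 9.73 in wildtype and from 8.48 to 9.75 in heterozygous mice, with heterozygous replicate 4 at the top. Of 10 genes of fibroblasts, smooth muscle and pericytes all 10 were lower (median -0.64), with a list mean from 8.41 to 9.02 in wildtype and from 7.57 to 9.16 in heterozygous mice, and of 8 myeloid genes 6 were lower (median -0.15). The part of these cells in the Klf2 and Klf4 values was not tested. In the endothelial and matrix lists 0 genes passed limma's adjusted p of 0.05. At an unadjusted p under 0.05 stood 4 of the 17 endothelial and 12 of the 21 matrix genes, beside 4.09% of all probe sets. The lists were chosen with earlier results of these data known, so nothing is read from these counts.

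**Figure D3:**
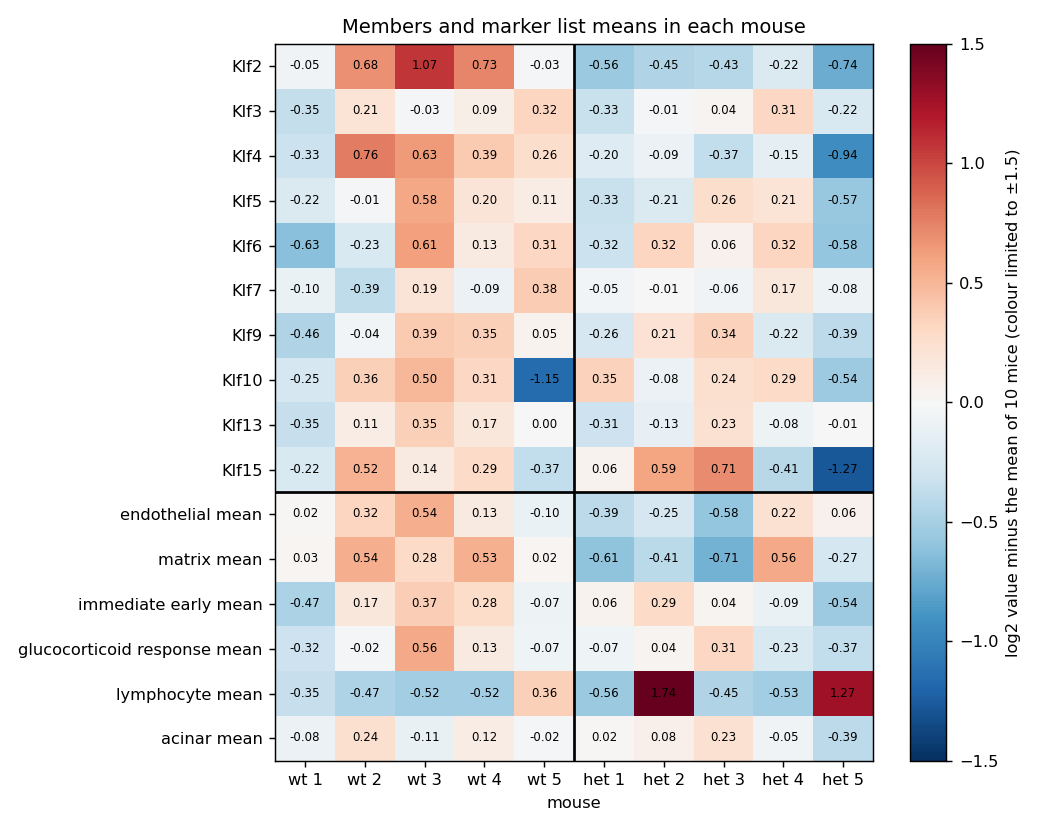
Log2 value of each member (upper rows) and of 6 gene list means (lower rows) in each mouse, given as the difference from the mean of the 10 mice, with colours limited to ±1.5. Klf2 is above its mean in 3 wildtype mice and below it in all 5 heterozygous mice, whereas heterozygous replicate 4 is high in the endothelial and matrix rows and heterozygous replicates 2 and 5 are high in the lymphocyte row.

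Over single mice, with the genotype means taken out, Klf2 and the endothelial mean correlated at r = 0.56 and rho = 0.60 over the 10 mice (permutation p = 0.0768 and 0.0679, adjusted 0.768 and 0.794 over 20 relations), and at r = 0.53 without the 2 mice farthest from the median endothelial mean. Leaving out 1 mouse moved this r from 0.37 (without wildtype replicate 3) to 0.71 (without heterozygous replicate 5). Klf2 and the matrix mean gave r = 0.49 and rho = 0.54 (permutation p = 0.0665 and 0.0964, adjusted 0.768 and 0.794), and r = 0.61 without heterozygous replicates 1 and 3, with a range from 0.43 to 0.62 on leaving out 1 mouse. With the genotype means left in, Klf2 gave r = 0.74 with the endothelial and 0.73 with the matrix mean (permutation p = 0.0160 and 0.0208, both adjusted 0.208), values that include the genotype difference itself. For Klf4 the values were r = 0.21 and rho = 0.44 with the endothelial mean (permutation p = 0.561 and 0.195, adjusted 0.858 and 0.794, r = 0.09 without the 2 farthest mice) and r = 0.32 and rho = 0.42 with the matrix mean (permutation p = 0.345 and 0.205, adjusted 0.858 and 0.794, r = 0.48 without the 2 farthest). Leaving out 1 mouse moved the first from 0.08 (without wildtype replicate 3) or 0.09 (without wildtype replicate 1) to 0.55 (without heterozygous replicate 5), and the second from 0.21 (without wildtype replicate 1) to 0.42 (without heterozygous replicate 5), and with the genotype means left in they were 0.53 and 0.62 (permutation p = 0.113 and 0.0592, adjusted 0.467 and 0.395). Klf3 and the matrix mean gave r = 0.54 and rho = 0.36 (permutation p = 0.136 and 0.340, adjusted 0.858 and 0.882, r = 0.57 without heterozygous replicates 1 and 3). The other 15 relations had r from -0.38 to 0.31, and 0 of the 20 passed an adjusted p of 0.05 in the permutation test (0 also at an unadjusted p under 0.05).

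**Figure D4:**
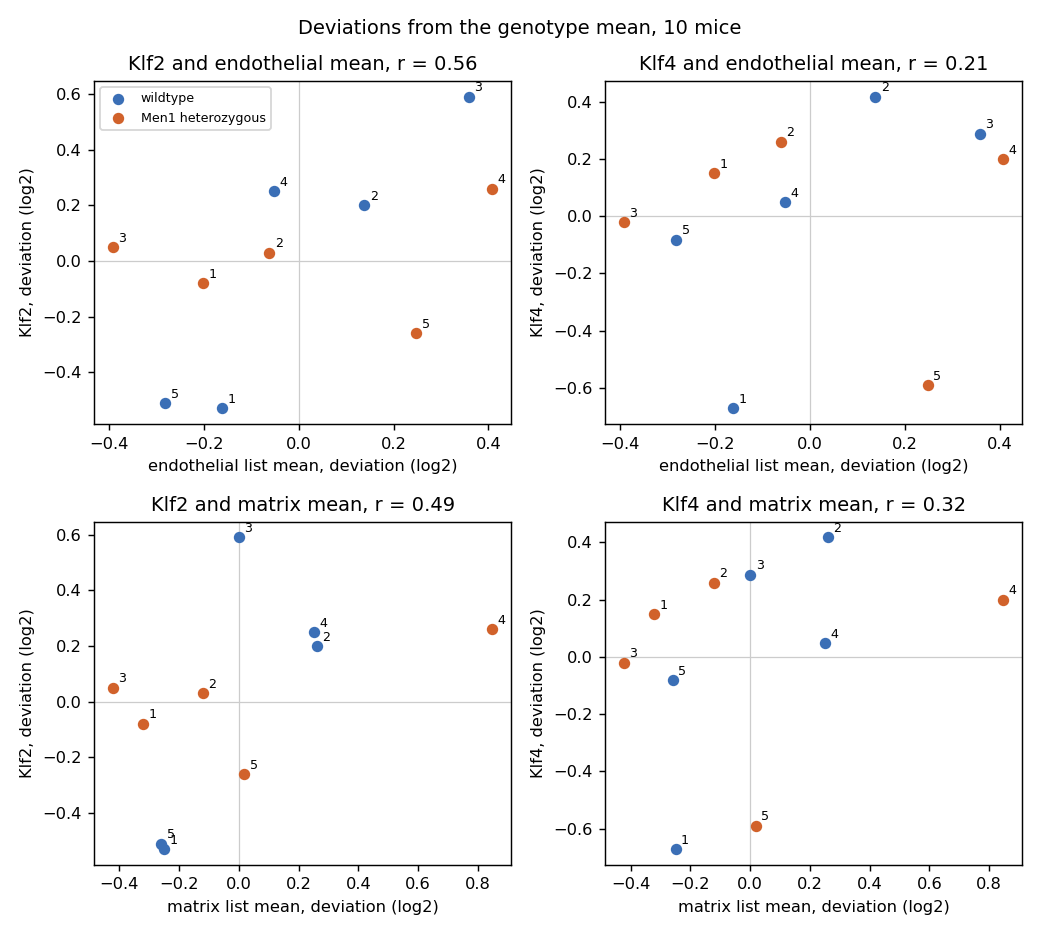
Deviation of Klf2 (left) and Klf4 (right) from the mean of their genotype against the deviation of the endothelial (top) and matrix (bottom) list means, in log2 units, for 5 wildtype (blue) and 5 heterozygous mice (orange) with replicate numbers. Points scatter widely, with r from 0.21 to 0.56 and no permutation p under 0.05.

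With the endothelial mean as a covariate the Klf2 difference was -0.69 (SE 0.24, 95% interval -1.22 to -0.17), and with the matrix mean it was -0.70 (SE 0.26, -1.27 to -0.13). For Klf4 the same fits gave -0.59 (SE 0.28, -1.21 to 0.03) and -0.52 (SE 0.28, -1.15 to 0.12), both with intervals that span 0. Both list means differed between genotypes themselves (endothelial -0.37, matrix -0.57), so these fits cannot separate genotype from either mean. Nothing is read from whether an interval spans 0. Without heterozygous replicates 2 and 5, the mice with high lymphocyte markers, Klf2 differed by -0.88 and Klf4 by -0.58. The part of lymphocyte RNA in these values was not tested.

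**Figure D5:**
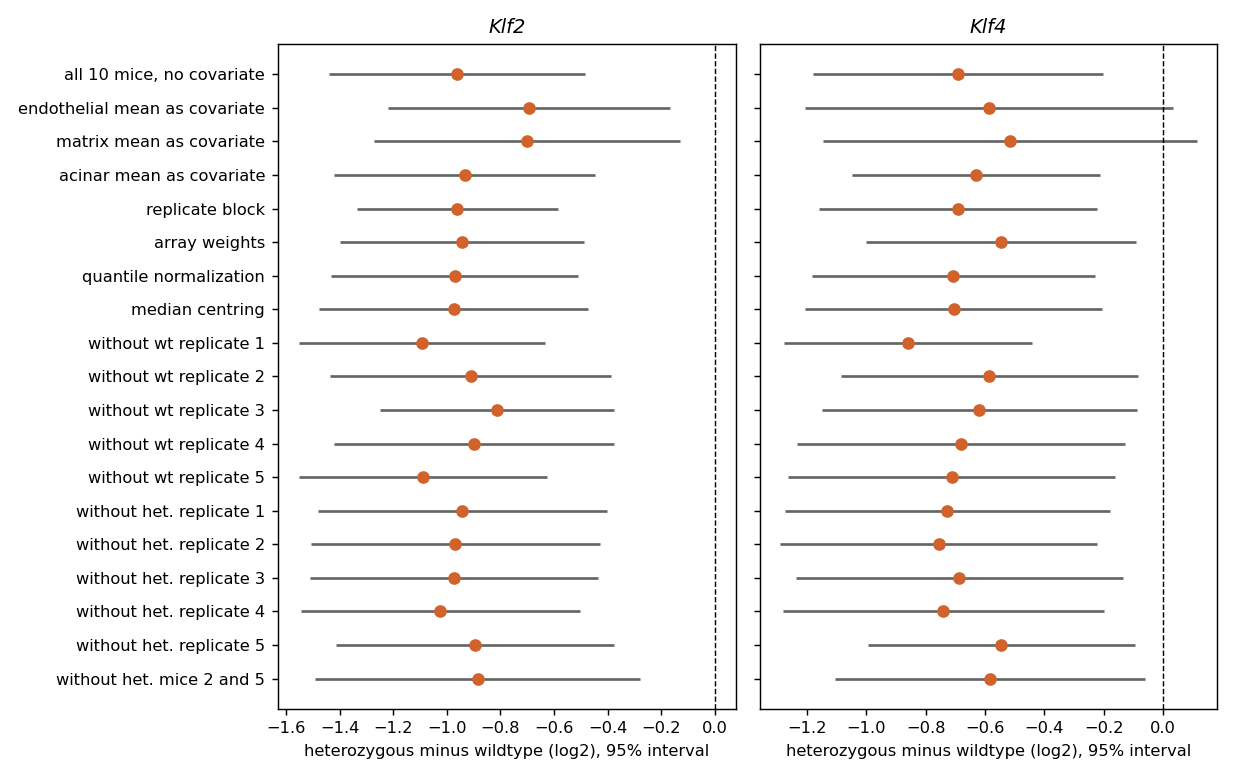
Difference between genotypes of Klf2 (left) and Klf4 (right) on the log2 scale with its 95% interval, for all 10 mice, with covariates, a replicate block, array weights or other normalizations, and without single mice. Klf2 runs from -1.09 to -0.69 and Klf4 from -0.86 to -0.52. The Klf4 interval reaches past 0 with the endothelial or matrix mean as a covariate, means that themselves differ between genotypes.

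Genes that act before, with or after the KLFs were compared next. Of 11 genes of the MEKK3, ERK5, MEF2 and CCM route 6 had a lower and 5 a higher mean (median -0.0025), among them Ccm2, a brake on the route (0.18, SE 0.10), the kinase gene Map2k5, which encodes MEK5 (0.13, SE 0.13), the flow-sensing channel gene Piezo1 (-0.18, SE 0.20) and Pdcd10, another CCM gene (-0.09, SE 0.22). Of 4 known targets of KLF2 in vessels and lymphocytes, the anticoagulant receptor gene Thbd averaged 8.16 ± 0.74 in wildtype and 7.61 ± 0.30 in heterozygous mice (-0.55, SE 0.31), S1pr1 at -0.60 (SE 0.38), Nos3, the endothelial nitric oxide synthase gene, at -0.12 (SE 0.21) and Edn1, which KLF2 represses, at 0.36 (SE 0.30). Of 14 cofactors and regulators of KLF proteins 9 had a lower and 5 a higher mean (median -0.03), with the co-activator gene Yap1 at -0.31 (SE 0.18), the ubiquitin ligase gene Wwp1 at -0.19 (SE 0.21) the acetyltransferase gene Kat2a at -0.09 (SE 0.12) and the corepressor gene Ctbp2 at 0.08 (SE 0.12). In these 3 lists 0 genes passed limma's adjusted p of 0.05, and 0 had an unadjusted p under 0.05.

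Of 17 immediate-early genes that are no KLFs 13 had a lower and 4 a higher mean (median -0.12), with the phosphatase gene Dusp1 at -0.31 (SE 0.14), the receptor gene Nr4a1 at -0.35 (SE 0.23), Fosb at -0.39 (SE 0.28) and Myc at 0.44 (SE 0.30). Of 11 glucocorticoid response genes 8 had a lower and 3 a higher mean (median -0.06), among them Tsc22d3 (-0.36, SE 0.21), the clock gene Per1 (-0.36, SE 0.37), the metallothionein gene Mt1 (-0.21, SE 0.27) and again Dusp1. With limma 0 genes of either list passed an adjusted p of 0.05, and 1, Dusp1 in both, had an unadjusted p under 0.05. The immediate-early mean was lowest in wildtype replicate 1 (10.42) and heterozygous replicate 5 (10.35), against 10.80 to 11.26 in the other mice. In the main probe sets of Klf2, Klf4, Klf5, Klf6 and Klf9, these 2 mice also held the lowest values of their genotypes.

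Among 40 further relations, of the 10 members with the immediate-early, lymphocyte and acinar means and with the 3′ minus 5′ control difference, Klf4 and the immediate-early mean gave r = 0.90 and rho = 0.81 over 10 mice with genotype means taken out (permutation p = 0.00634 and 0.0176, adjusted 0.0781 and 0.235), and r was 0.48 without wildtype replicate 1 and heterozygous replicate 5, so that the relation rested on those mice. Klf2 gave r = 0.75 and rho = 0.65 with the same mean (permutation p = 0.0160 and 0.0747, adjusted 0.107 and 0.332, r = 0.62 without those mice), above its r with the endothelial or matrix mean, a difference that was not tested. Klf9 gave r = 0.83 and rho = 0.66 (permutation p = 0.00433 and 0.0584, adjusted 0.0781 and 0.332, r = 0.60 without those mice). Klf15 and the acinar mean gave r = 0.91 and rho = 0.88 (permutation p = 0.00141 and 0.00199, adjusted 0.0564 and 0.0796), and r = 0.73 without wildtype replicate 2 and heterozygous replicate 5. Klf2 and the 3′ minus 5′ difference gave r = 0.09 and rho = 0.16 (permutation p = 0.713 and 0.613, adjusted 0.891 and 0.849), and r turned to -0.49 without heterozygous replicates 3 and 4. Of these 40, 0 passed an adjusted p of 0.05 in the permutation test and 8 had an unadjusted p under 0.05 for r. How often other genes reach this was not worked out, so nothing is read from the count. The part of handling, acinar content or RNA quality in the members' values was not tested.

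Between members, 45 pairs were compared in the same way. In the permutation test 0 passed an adjusted p of 0.05 and 11 had an unadjusted p under 0.05 for r. The share among pairs of other genes was not worked out, so nothing is read from this count. The pair with the lowest permutation p was Klf2 and Klf10 (r = 0.83, rho = 0.82, permutation p = 0.00551 and 0.0210, adjusted 0.159 and 0.189, r = 0.77 without wildtype replicates 3 and 4), followed by Klf5 and Klf6 (r = 0.82, rho = 0.81, permutation p = 0.00955 and 0.0138, adjusted 0.159 and 0.189, r = 0.62 without wildtype replicate 3 and heterozygous replicate 5). Klf2 and Klf4 gave r = 0.74 and rho = 0.75 (permutation p = 0.0176 and 0.0483, adjusted 0.159 and 0.241, r = 0.81 without wildtype replicates 3 and 4).

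By the highest r over the 10 mice with genotype means taken out, a description with no test since it picks the best of 10538 genes, the genes nearest to Klf2 were Tial1 (0.97), Kat2a (0.95) and Sult1a1 (0.94). Those nearest to Klf4 were Ano1 (0.97), Tyk2 (0.93) and Adk (0.93), and those nearest to Klf9 were Pim3 (0.97), Adap2 (0.91) and Errfi1 (0.91). For Klf15 they were Cth (0.97), AY036118 (0.97) and Ergic3 (0.96). The 3 nearest to Klf3 were Cdipt (0.96), Gjc1 (0.96) and Cs (0.93), to Klf5 Ftsj1 (0.95), AA986860 (0.93) and Mitf (0.91), and to Klf6 Lars (0.94), Zc3h6 (0.94) and Zfp959 (0.92). For Klf7 they were Emc1 (0.94), Slc25a3 (0.93) and Aasdh (0.93), for Klf10 Def8 (0.95), Ext2 (0.95) and Zswim8 (0.93), and for Klf13 Tnpo3 (0.97), Pard3 (0.95) and Stxbp5l (0.92).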

How the data were processed

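Total RNA from islets, 100 ng per mouse, was amplified over 2 cycles to biotinylated cRNA and hybridised to 1 array per mouse, per the labels' protocols. The authors deposited log2 values, 1 per probe set and array, and the submitters' processing notes name GCRMA. That method draws dim probe sets to similar low readings, so their differences come out small. The scale was read from the values, which ran from 0.654 to 17.58. Probe sets were named through the platform annotation (34958 carry 1 symbol, 932 several and 9211 none here), and 34754 matched RefSeq genes of GRCm38.p6.

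After leaving out 64 control probe sets, limma 3.58.1 in R 4.3.3 (lmFit, then eBayes) gave the genotype difference of each probe set over all 10 arrays without covariates, with Benjamini-Hochberg adjustment over 18567 probe sets and a threshold of 0.05. All tests are two-sided. The main probe set of a gene is the one kept with the highest mean. List means took 1 probe set per gene. Relations used deviations from the genotype means with 100000 permutations within genotype. The 45 pairs of members, 17 pairs of probe sets and 40 further relations were added after the design. The members, the gene lists, the tests and the alternatives were chosen with earlier results of these data known. Named were all members with all probe sets, other Klf and Sp genes above the filter, and up to 4 genes per list by smallest p. The 3 nearest genes of each member by r were named too, and beyond this rule Men1, Gcg, Kdr, Flt1, Cspg4 and Tcf21. The fit and the permutation test were tested on simulated data. The labels do not say whether same-numbered mice share a litter or day, and they were not treated as pairs. Across genotypes, same-numbered mice deviated together at r = -0.28 to 0.11. Differently numbered mice were not compared, so these values do not settle whether the numbers pair them. No 2 arrays held equal values. The number of arrays limits the precision. Levels of different genes are not compared, since probe sets differ in brightness. Permutations and plots used Python 3.11.15 with numpy 2.4.6 and matplotlib 3.10.9. Alternatives were other filters, normalizations, covariates, weights, a replicate block, and fits without single mice.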

Additional observations from a re-analysis of the deposited data

Results flagged for a closer look

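Within each genotype, the 27 member probe sets above the filter were searched for a mouse far from the other 4, which made 54 groups. In 1 of them the gap to the nearest mouse exceeded 0.71 of the group's range. It was a Klf9 probe set in wildtype replicate 1, at 10.82, where the next wildtype mouse stood at 11.52. Chance marks about 1 group in 20. The same mouse was also the lowest wildtype mouse in the Klf9 probe set with the highest mean (12.38) and in the immediate-early mean (10.42).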

How the results depend on the processing

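Under all alternatives run, 0 member probe sets and 0 of all probe sets passed limma's adjusted p of 0.05, also at 0.10 and with a replicate block, which left the Klf2 difference at -0.96 (786 probe sets at an unadjusted p under 0.05 with the block, 760 without). Over those fits the number at an unadjusted p under 0.05 ran from 599 to 1221. The median difference over the members stayed below 0, from -0.23 (without wildtype replicate 1) to -0.03 (mean of all kept probe sets per gene). Klf2 and Klf4 were lower in every fit. The choice of members used these differences, and the fits share most of their mice, so this is a description only. Of the 20 relations to the endothelial and matrix means 0 passed under any alternative, but weak ones changed sign. Pooled over genotypes, r of Klf9 was 0.00994 with the endothelial and 0.0504 with the matrix mean. Quantile normalization gave Klf7 and the endothelial mean -0.200, and median centring gave Klf7 and the matrix mean 0.0637. With all kept probe sets averaged, Klf5 gave -0.359 (endothelial) and -0.192 (matrix), and Klf7 0.0544 (matrix). Without the 2 mice farthest from the median of the list mean, r with the endothelial mean was -0.00144 for Klf6 and -0.305 for Klf7, and r with the matrix mean 0.0766 for Klf9 and 0.134 for Klf15. Leaving out 1 mouse, r with the endothelial mean ran from -0.187 to 0.396 for Klf3, -0.149 to 0.549 for Klf5, -0.0648 to 0.437 for Klf6, -0.194 to 0.412 for Klf7 and -0.406 to 0.169 for Klf9. With the matrix mean it ran from -0.193 to 0.553 for Klf5, -0.0444 to 0.330 for Klf6, -0.543 to 0.223 for Klf7, -0.329 to 0.132 for Klf9 and -0.0330 to 0.452 for Klf13. The cause of these sign changes was not tested. Whether mouse numbers pair the mice is not known, and the SE of the Klf2 difference was 0.16 with the block and 0.22 without. Dim probe sets, near the filter value, carry little signal over background.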
